A study of Mus musculus with 4 samples.

Results

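Cluster 3 is a set of spatial transcriptomics spots in the mouse brain. Most of its content was assigned to astrocytes, an excitatory neuron type named L4_5_IT_TPE_ENT, and oligodendrocytes. Its members are all spots given the cluster number 3 in the deposited tables, 1193 of 14809 spots in all. The study exposed wild-type C57 mice to chronic social defeat, a stress procedure after which a social interaction test sorts animals into those that avoid others (susceptible) and those that do not (resilient), and placed 1 sagittal section per group on barcoded slides. The 4 sections came from a susceptible mouse given ketamine intraperitoneally at 10 mg/kg (brain taken 7 days later), a susceptible mouse given saline, a resilient mouse given saline and a control mouse given saline. The labels give no age or sex and do not say whether the control met any procedure other than saline. By its title the study concerns myelin repair after ketamine.

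The measure is the part of a spot that its authors gave to each of 67 cell types (47 glutamatergic, 11 GABAergic and 9 non-neuronal) or to unknown, summing to 100% in every spot. A spot can hold several cells or parts of cells, and the shares are estimates relative to each other, so more of one type leaves less for the rest, and fewer cells of a type cannot be told apart from less RNA per cell. Shares under about 15% of a spot do not occur in cluster 3 (the smallest was 15.2% in the ketamine-treated, 16.7% in the susceptible, 15.2% in the resilient and 15.5% in the control section). Gene counts and depth per spot were not analysed here. With 1 section per group there is no test across mice: each difference below is between 2 sections, and mouse, section plane and slide cannot be told apart from the condition. Intervals on shares of spots are exact Clopper-Pearson 95% intervals and cover counting error only, with neighbouring spots taken as independent, which they need not be.

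Astrocytes are the glial cells that take up transmitter and potassium around synapses and contact vessels. Oligodendrocytes wrap axons in myelin and arise from precursors called OPC. L4_5_IT_TPE_ENT names intratelencephalic glutamatergic neurons, which project within the forebrain, of layers 4 and 5 of temporal association, perirhinal, ectorhinal and entorhinal areas. The names of the 67 types cover the cortex and the hippocampal formation, and no neuronal type is named for the thalamus, midbrain, cerebellum or striatum. A neuron of any other region could be given only one of these names, so L4_5_IT_TPE_ENT is used here as the name of a deposited share, and whether its spots lie in the named areas was not tested.

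Cluster 3 took 210 of 3477 spots in the ketamine-treated section (6.04%, interval 5.27 to 6.88), 278 of 3443 in the susceptible section (8.07%, 7.19 to 9.03), 375 of 4156 in the resilient section (9.02%, 8.17 to 9.94) and 330 of 3733 in the control section (8.84%, 7.95 to 9.80). The ketamine-treated section had the smallest proportion, with an interval below those of the other 3, which overlapped one another. The number was used as one and the same cluster in every section. Of the 12 ordered pairs of sections, cluster 3 of the first lay nearest in composition to cluster 3 of the second in 12, by the Bray-Curtis distance of mean shares among clusters of at least 20 spots. The distances were 0.147 to 0.153 among the 3 sections of defeated mice and 0.213 to 0.260 between these and the control. The method of clustering is not given in the sources used here, and clusters and shares describe the same spots, so a type being common in cluster 3 is a description with no test.

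The sections did not all lie alike on their arrays. Arrays of this slide type carry one common set of barcodes, so a barcode was taken to mark the same place on each array. Of the 210 ketamine-treated cluster 3 barcodes, 202 were also cluster 3 in the susceptible section (96.2% of the ketamine-treated and 72.7% of the susceptible set). The resilient and control sections had 106 such barcodes in common (28.3% and 32.1% of their sets), and the other 4 pairs had 0. At the 202 common places the makeup of the spots was not copied: the mean distance between the 2 spots of a place was 0.682, against 0.688 between spots of different places, and the leading type was the same in 55. At the 106 resilient and control places these distances were 0.645 and 0.623, and the leading type was the same in 32. Common places are thus matched by array place and cluster number, with no greater likeness of makeup. Of the 278 susceptible cluster 3 places, 36 belonged to cluster 1 and 16 to cluster 11 in the ketamine-treated section. The resilient and control sections lay less alike. Of the 375 resilient cluster 3 places, 128 belonged to cluster 10 in the control section, and of the 330 control places, 166 belonged to cluster 4 in the resilient section. Of all barcodes in both sections, 25.8% had the same cluster number in this pair, against 53.2% for ketamine-treated and susceptible.

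The label of the cluster held in the sections of defeated mice and in part in the control. Astro had the highest mean share in every section. L4_5_IT_TPE_ENT was next in the ketamine-treated, susceptible and resilient sections, while in the control Oligo was next and L4_5_IT_TPE_ENT after it. Together the 3 types made up 77.0% of cluster 3 in the ketamine-treated, 68.9% in the susceptible, 74.9% in the resilient and 77.2% in the control section. Of the 67 types, 42 occurred in some cluster 3 spot, 17 in all 4 sections and 25 in none, and 12 reached a mean share of 1% in some section.

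**Figure D1:**
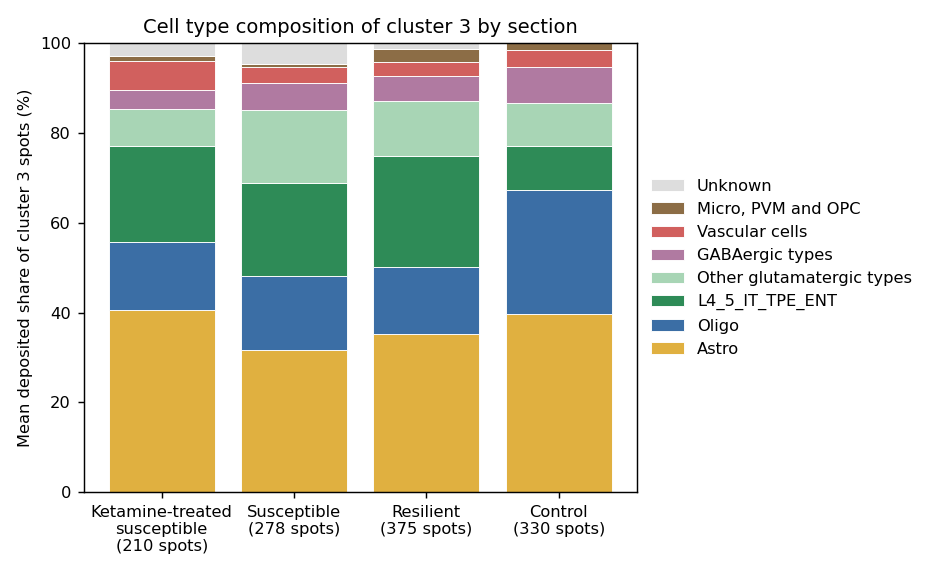
Mean deposited share (%) of cell types over the cluster 3 spots of each section, stacked to 100%, with the number of spots under each bar. L4_5_IT_TPE_ENT stands at 20.8% to 24.6% in the sections of defeated mice and at 9.85% in the control, and Oligo at 14.96% to 16.5% in the sections of defeated mice and 27.7% in the control.

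Astro averaged 40.5% of a cluster 3 spot in the ketamine-treated section (SD over spots 30.3), 31.6% in the susceptible section (31.5), 35.3% in the resilient section (29.7) and 39.6% in the control section (25.5). It was carried by 74.8% of ketamine-treated spots (68.3 to 80.5), 60.4% of susceptible spots (54.4 to 66.2), 69.6% of resilient spots (64.7 to 74.2) and 82.1% of control spots (77.6 to 86.1). The susceptible interval lay below those of the ketamine-treated and control sections and overlapped that of the resilient section. Where present, Astro took a similar part of the spot in all sections, with medians of 50.6% for ketamine-treated, 47.4% for susceptible, 46.5% for resilient and 45.9% for control spots. Sections thus differed in how many spots carried Astro more than in how much of a spot it filled. Among all clusters of at least 20 spots, cluster 3 had rank 3 by mean Astro share in the ketamine-treated, susceptible and resilient sections and rank 1 in the control.

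L4_5_IT_TPE_ENT averaged 21.4% in the ketamine-treated section (SD over spots 27.4), 20.8% in the susceptible section (30.1), 24.6% in the resilient section (27.5) and 9.85% in the control section (16.5). It was carried by 46.7% of ketamine-treated spots (39.8 to 53.7), 39.9% of susceptible spots (34.1 to 45.9), 54.9% of resilient spots (49.7 to 60.05) and 29.7% of control spots (24.8 to 34.9). The control was lowest on both measures, and its interval overlapped only the susceptible one, narrowly. The amount per carrying spot was lower in the control as well: the median was 42.0% in the ketamine-treated, 45.0% in the susceptible, 39.1% in the resilient and 30.4% in the control section. Spots filled wholly by this type numbered 11 in the ketamine-treated, 21 in the susceptible, 21 in the resilient and 1 in the control section.

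**Figure D2:**
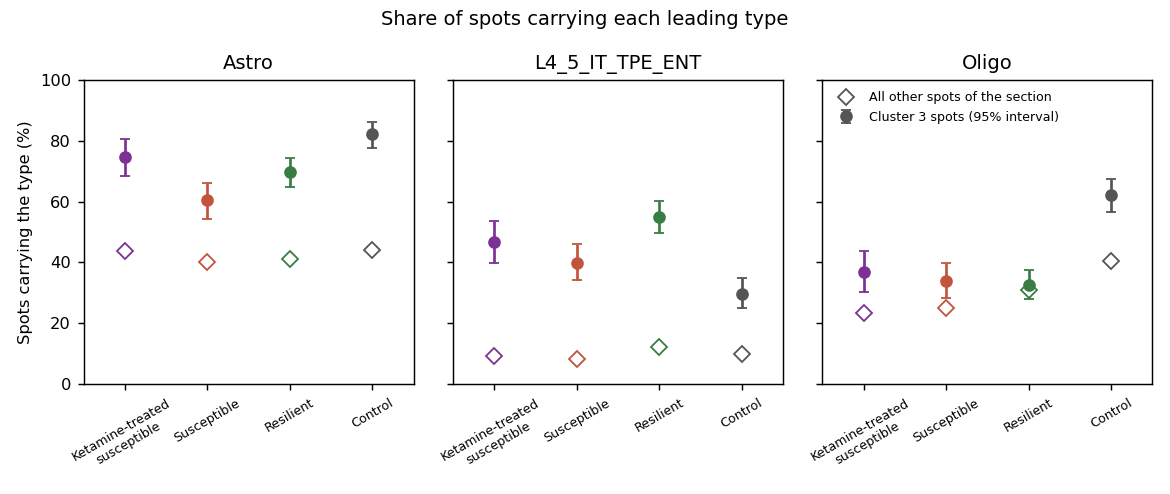
Share of spots (%) carrying Astro, L4_5_IT_TPE_ENT and Oligo in each section. Filled circles with bars are cluster 3 spots with their 95% interval, and open diamonds all other spots of the same section; Oligo is carried by 32.5% to 36.7% of cluster 3 spots in the sections of defeated mice and by 62.1% in the control.

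Cluster 3 held a large part of the L4_5_IT_TPE_ENT share of each section. It contained 33.9% of the summed L4_5_IT_TPE_ENT share of the ketamine-treated section, 40.3% of the susceptible, 39.6% of the resilient and 24.6% of the control section. In all spots outside the cluster the type averaged 2.68% for ketamine-treated, 2.70% for susceptible, 3.73% for resilient and 2.93% for control spots. The cluster with the next highest share of it in the ketamine-treated, susceptible and resilient sections, and the highest in the control (10.4%), was cluster 6.

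The company of L4_5_IT_TPE_ENT differed between these clusters. Of the cluster 3 spots carrying it, 0 of 98 ketamine-treated, 0 of 111 susceptible, 1 of 206 resilient and 1 of 98 control spots also held any of the 10 types named for general cortex (CTX); the exact intervals of these shares end at 3.69% for ketamine-treated, 3.27% for susceptible, 2.67% for resilient and 5.55% for control spots. In cluster 6 the corresponding counts were 79 of 94 spots (84.0%, 75.05 to 90.8) in the ketamine-treated, 64 of 80 (80.0%, 69.6 to 88.1) in the susceptible, 71 of 89 (79.8%, 69.9 to 87.6) in the resilient and 76 of 106 (71.7%, 62.1 to 80.02) in the control section. Of these cluster 3 spots, 32.7% of ketamine-treated, 25.2% of susceptible, 25.7% of resilient and 54.1% of control spots also carried Oligo. In cluster 6, Oligo was with it in 1 ketamine-treated, 0 susceptible, 0 resilient and 2 control spots. Over all 1193 cluster 3 spots only 3 held a CTX type, and 7 of the 10 CTX types, among them L2_3_IT_CTX and L5_IT_CTX, were in none. The low counts beside L4_5_IT_TPE_ENT thus go with the near absence of CTX types from cluster 3 as a whole and are not read as a trait of this type. The share of all cluster 6 spots holding a CTX type was not set beside the cluster 6 counts. Whether the contrast between the 2 clusters goes beyond the general makeup of each was not tested.

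**Figure D3:**
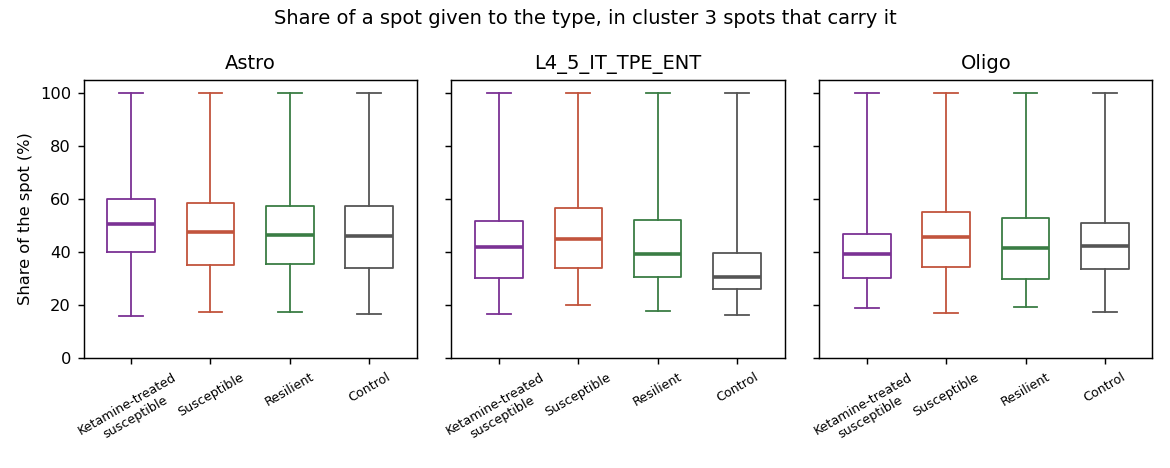
Share of the spot (%) given to each leading type in the cluster 3 spots that carry it, by section. Boxes span the quartiles, the thick line is the median and whiskers reach the lowest and highest value; the control median of L4_5_IT_TPE_ENT (30.4%) is the lowest of the 4, while those of Astro lie between 45.9% and 50.6%.

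Oligo averaged 15.1% in the ketamine-treated section (SD over spots 22.1), 16.5% in the susceptible section (26.2), 14.96% in the resilient section (24.7) and 27.7% in the control section (25.6). It was carried by 36.7% of ketamine-treated spots (30.1 to 43.6), 33.8% of susceptible spots (28.3 to 39.7), 32.5% of resilient spots (27.8 to 37.5) and 62.1% of control spots (56.6 to 67.4). The 3 sections of defeated mice overlapped one another and lay below the control. Carrying spots were filled to a similar degree, with median Oligo shares of 39.3% for ketamine-treated, 45.8% for susceptible, 41.5% for resilient and 42.2% for control spots. Outside cluster 3, Oligo averaged 12.5% for ketamine-treated, 13.7% for susceptible, 16.1% for resilient and 21.7% for control spots, so the control was highest there too. In the resilient section Oligo was thus lower inside the cluster than outside it. By mean Oligo share among clusters of at least 20 spots, cluster 3 had rank 5 in the ketamine-treated and susceptible sections. Its rank was 6 in the resilient and 7 in the control section. OPC was rare, in 1 ketamine-treated, 0 susceptible, 4 resilient and 3 control spots; the exact interval of 0 of 278 susceptible spots ends at 1.32%.

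Because shares sum to 100%, the lower Oligo and the higher L4_5_IT_TPE_ENT were also set apart from each other. With L4_5_IT_TPE_ENT left out of the total, Oligo made up 19.3% of the remainder in the ketamine-treated, 20.8% in the susceptible, 19.8% in the resilient and 30.7% in the control section. With Oligo left out, L4_5_IT_TPE_ENT made up 25.2% for ketamine-treated, 24.9% for susceptible, 29.0% for resilient and 13.6% for control spots. Of the summed Oligo and Astro share, Oligo was 27.2% for ketamine-treated, 34.2% for susceptible, 29.8% for resilient and 41.1% for control spots. Of the share given to any neuron, L4_5_IT_TPE_ENT was 63.0% for ketamine-treated, 48.2% for susceptible, 58.0% for resilient and 35.9% for control spots. Each of these 4 measures set the control at the same end as before.

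The spots were mixtures of few types. They kept 2.14 types on average in the ketamine-treated, 2.05 in the susceptible, 2.22 in the resilient and 2.44 in the control section, and at most 5. Spots with a single type made up 22.9% of ketamine-treated, 31.3% of susceptible, 21.1% of resilient and 10.9% of control spots, so control spots were the most mixed. With spots of 1, 2 and 3 or more types weighted alike in all sections, the ratios to the control were 2.42, 2.29 and 2.80 for L4_5_IT_TPE_ENT and 0.563, 0.621 and 0.543 for Oligo, for ketamine-treated, susceptible and resilient spots in turn. Spots given no type numbered 6 in the ketamine-treated section (2.86%), 13 in the susceptible (4.68%), 5 in the resilient (1.33%) and 0 in the control. The exact interval of 0 of 330 control spots ends at 1.11%, against 3.996% unknown in the other control spots.

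Sorting spots by which of the 3 leading types they held showed where the control stood apart. Astro with Oligo but no L4_5_IT_TPE_ENT was found in 19.5% of ketamine-treated (14.4 to 25.5), 15.1% of susceptible (11.1 to 19.9), 13.3% of resilient (10.1 to 17.2) and 36.1% of control spots (30.9 to 41.5), and was the commonest combination in the control. L4_5_IT_TPE_ENT with neither Astro nor Oligo was found in 10.0% of ketamine-treated (6.30 to 14.9), 10.1% of susceptible (6.80 to 14.2), 14.4% of resilient (11.01 to 18.4) and 1.21% of control spots (0.331 to 3.07). The control interval lay apart from all others in both. Astro without the other two differed little, at 25.2% of ketamine-treated, 22.3% of susceptible, 20.3% of resilient and 21.5% of control spots, with overlapping intervals. Oligo without the other two was found in 1.90% of ketamine-treated (4 spots, 0.521 to 4.80), 8.63% of susceptible (24 spots, 5.61 to 12.6), 5.07% of resilient (19 spots, 3.08 to 7.80) and 10.0% of control spots (33 spots, 6.98 to 13.8). Its ketamine-treated interval lay below those of the susceptible and control sections. Spots with none of the 3 were most frequent in the susceptible section, at 14.0% (10.2 to 18.7) against 2.73% (1.25 to 5.11) in the control.

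**Figure D4:**
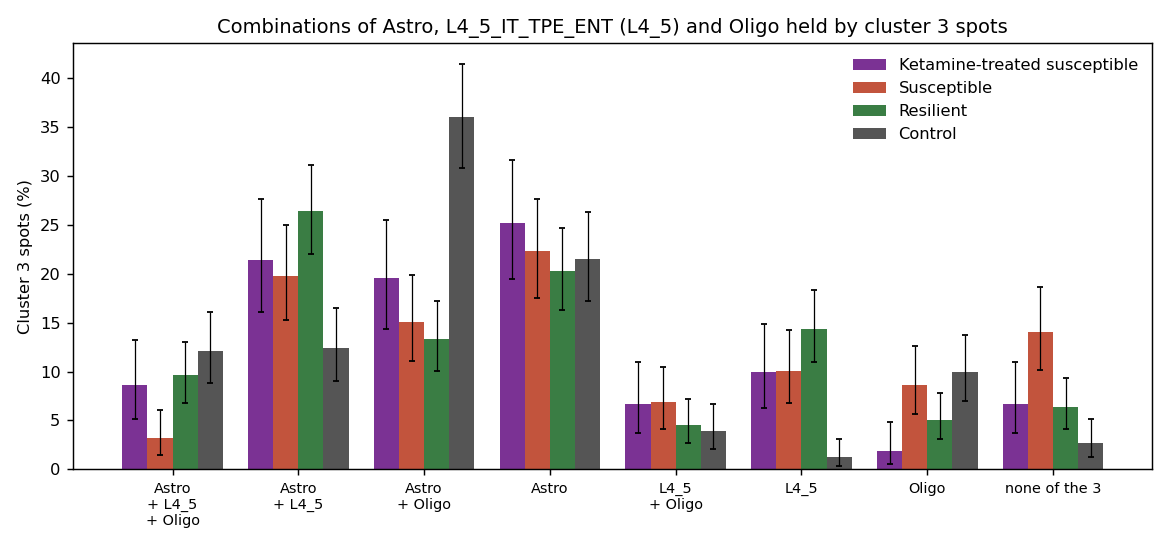
Share of cluster 3 spots (%) holding each combination of Astro, L4_5_IT_TPE_ENT (L4_5) and Oligo, by section, with 95% intervals; spots may hold further types. The control has 36.1% of its spots in Astro with Oligo and 1.21% in L4_5 without the other two.

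Within a section, Oligo was carried less often by spots with L4_5_IT_TPE_ENT than by those without. Oligo was in 32.7% of ketamine-treated spots with L4_5_IT_TPE_ENT (23.5 to 42.9) and 40.2% of those without (31.03 to 49.9). In the susceptible section it was in 25.2% with (17.5 to 34.4) and 39.5% without (32.05 to 47.4), in the resilient section in 25.7% with (19.9 to 32.3) and 40.8% without (33.3 to 48.6), and in the control in 54.1% with (43.7 to 64.2) and 65.5% without (59.02 to 71.6). The direction was the same in all 4 sections, and the intervals were apart in the resilient section alone. Astro too was carried less often beside L4_5_IT_TPE_ENT in 3 sections: in 64.3% with it (54.0 to 73.7) and 83.9% without (75.8 to 90.2) in ketamine-treated spots, in 57.7% with (47.9 to 67.0) and 62.3% without (54.5 to 69.6) in susceptible spots, and in 65.5% with (58.6 to 72.0) and 74.6% without (67.3 to 80.9) in resilient spots. In control spots it was carried by 82.7% with (73.7 to 89.6) and 81.9% without (76.3 to 86.6). Shares that sum to 100% with none under about 15% leave less room for a second type, and the value that this alone would give was not computed, so none of these differences is called particular to a pair. Among spots without L4_5_IT_TPE_ENT, Oligo was carried by 39.5% to 40.8% in the sections of defeated mice and by 65.5% in the control.

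After the 3 leading types came sparse neurons and vessel cells. For 2 sparse neuron types, cluster 3 held from 25.3% to 61.3% of the section total. L3_RSP_ACA, a layer 3 neuron type named for retrosplenial and anterior cingulate cortex, averaged 2.67% in the ketamine-treated, 2.65% in the susceptible, 1.26% in the resilient and 3.77% in the control section. Cluster 3 held 25.3% of its total in the ketamine-treated section, 43.2% in the susceptible, 44.5% in the resilient and 47.7% in the control. Its mean was highest there among clusters of at least 20 spots in all 4 sections. Pvalb_Vipr2, the type that matches chandelier cells, which contact the axon initial segment, averaged 1.75% for ketamine-treated, 2.61% for susceptible, 1.22% for resilient and 2.09% for control spots. Of its section total, cluster 3 held 35.5% for ketamine-treated, 38.8% for susceptible, 39.3% for resilient and 61.3% for control spots. Its mean in cluster 3 was highest among clusters in the control alone. Cluster 16 was higher in the ketamine-treated (3.37%) and susceptible (4.04%) sections and cluster 14 in the resilient section (1.39%). Both types rest on 9 to 42 spots per section.

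Pvalb, the fast-spiking parvalbumin interneuron, was most frequent in the control. It averaged 1.38% in the ketamine-treated, 2.88% in the susceptible, 2.82% in the resilient and 5.60% in the control section, and was carried by 4.29% of ketamine-treated spots (1.98 to 7.98), 8.27% of susceptible (5.32 to 12.2), 8.27% of resilient (5.69 to 11.5) and 16.1% of control spots (12.3 to 20.5). The control interval lay above the other 3. Spots with Oligo carried Pvalb in 3.90% and those without in 4.51% in the ketamine-treated section, and in 7.45% and 8.70% in the susceptible section, with overlapping intervals. The resilient values were 2.46% with Oligo (0.510 to 7.02) and 11.1% without (7.48 to 15.6), and the control values 10.7% with (6.85 to 15.8) and 24.8% without (17.5 to 33.3). As for the pairs above, a spot that holds one type has less room for another, so this is not called particular to Pvalb and Oligo. GABAergic types as a class averaged 4.17% for ketamine-treated, 6.14% for susceptible, 5.49% for resilient and 8.10% for control spots.

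Projection neurons of other areas were minor. NP_SUB, near-projecting neurons named for the subiculum, averaged 1.97% in the ketamine-treated, 4.88% in the susceptible, 1.07% in the resilient and 1.22% in the control section, so the susceptible section was highest. L5_PT_RSP_ACA, layer 5 pyramidal-tract neurons that project to subcortical targets, averaged 1.39% in the ketamine-treated, 3.20% in the susceptible, 4.94% in the resilient and 1.04% in the control section. L2_IT_RSPv, layer 2 neurons named for ventral retrosplenial cortex, averaged 0.432% for ketamine-treated, 2.12% for susceptible, 1.16% for resilient and 1.19% for control spots. By area in the name, the 11 entorhinal or temporal types summed to 22.4% for ketamine-treated, 22.4% for susceptible, 26.9% for resilient and 10.7% for control spots. The 4 retrosplenial or cingulate types summed to 4.49% of a ketamine-treated, 8.34% of a susceptible, 7.57% of a resilient and 6.21% of a control spot, and the 15 hippocampal formation types to 2.34%, 5.50%, 1.46% and 1.93% of a ketamine-treated, susceptible, resilient and control spot.

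Vessel and immune cells were few. Endothelial cells (Endo), which line vessels, averaged 2.80% in the ketamine-treated, 0.993% in the susceptible, 1.71% in the resilient and 1.34% in the control section. Pericytes (Peri), which wrap capillaries, averaged 2.76% for ketamine-treated, 1.53% for susceptible, 0.537% for resilient and 1.48% for control spots. Microglia (Micro), the resident immune cells, averaged 1.02% for ketamine-treated, 0.374% for susceptible, 1.93% for resilient and 0.764% for control spots. Vascular types together were carried by 16.2% of ketamine-treated spots (11.5 to 21.9), 7.91% of susceptible (5.03 to 11.7), 8% of resilient (5.46 to 11.2) and 11.2% of control spots (8.02 to 15.1). The ketamine-treated interval overlapped those of the susceptible and control sections and lay above that of the resilient section.

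The pairs of types that most spots held together were Astro with Oligo (59 ketamine-treated, 51 susceptible, 86 resilient and 159 control spots), L4_5_IT_TPE_ENT with Astro (63 ketamine-treated, 64 susceptible, 135 resilient and 81 control spots) and L4_5_IT_TPE_ENT with Oligo (32 ketamine-treated, 28 susceptible, 53 resilient and 53 control spots). As shares of the cluster, Astro with Oligo stood at 28.1% for ketamine-treated, 18.3% for susceptible, 22.9% for resilient and 48.2% for control spots. The next 6 pairs joined Astro to Pvalb (81 spots over the 4 sections), L3_RSP_ACA (60), L5_PT_RSP_ACA (52), Endo (45), NP_SUB (41) and Pvalb_Vipr2 (37). Pvalb with L4_5_IT_TPE_ENT came next, with 36 spots.

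The comparisons below count types with a mean share of at least 1% in either section and call a type different when its means differ by at least 1.5-fold, a rule of size with no test. All 5 draw on the same 4 sections, and 3 share the control. The proportion of types called over all other spots is printed beside that of cluster 3. It rests on 22 to 24 types and on 3165 to 3781 spots per section, against 210 to 375 in cluster 3. Sparse types thus rest on far fewer spots in cluster 3, and a larger proportion there is not read as a larger difference.

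The ketamine-treated section was set against the susceptible section to ask what differed after the drug. Of 12 types, 7 differed by 1.5-fold, 3 being higher and 4 lower after ketamine (58.3%, against 13.6% of types over all other spots of the same 2 sections). Mean shares of L4_5_IT_TPE_ENT and Oligo had ratios of 1.03 and 0.920, with overlapping intervals of carrying spots; Oligo without Astro or L4_5_IT_TPE_ENT was in 4 ketamine-treated and 24 susceptible spots, as given above. Astro was higher by 8.92 points, a ratio of 1.28, with intervals of its carrying spots apart; over all other spots its ratio was 1.06. Endo was 2.81 times as high (19 against 7 spots, intervals apart), Micro 2.73 times (6 against 3 spots) and Peri 1.81 times (12 against 11 spots, a ratio of 1.44 by spots carrying it). Lower were L2_IT_RSPv (ratio 0.203, 3 against 15 spots), NP_SUB (0.403, 10 against 32), L5_PT_RSP_ACA (0.434, 7 against 21) and Pvalb (0.481, 9 against 23), each with overlapping intervals. Pvalb_Vipr2 (0.673) and L3_RSP_ACA (1.01) did not pass the fold.

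These 2 sections could also be compared over the 202 array places that lay in cluster 3 of both. There Astro averaged 41.1% of a ketamine-treated spot and 30.02% of a susceptible one, carried by 75.2% of spots (68.7 to 81.04) against 60.9% (53.8 to 67.7). L4_5_IT_TPE_ENT averaged 21.3% of a ketamine-treated and 22.8% of a susceptible spot, and Oligo 14.7% of a ketamine-treated and 17.7% of a susceptible spot. NP_SUB was in 10 ketamine-treated and 22 susceptible spots, Pvalb in 8 and 22, and Endo in 16 and 7. The Endo ratio there was 1.80, and its intervals overlapped (4.60 to 12.5% of ketamine-treated and 1.40 to 7.01% of susceptible spots), so that of the 12 types Astro alone had intervals apart. The other 6 called types stayed past 1.5-fold in the same direction. The 76 susceptible places outside this set had less L4_5_IT_TPE_ENT (15.5%, against 22.8% inside it) and L3_RSP_ACA in 1 spot, against 19 of the 202.

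The ketamine-treated section was next set against the control. Of 12 types, 7 differed by 1.5-fold, 4 higher and 3 lower (58.3%, against 31.8% over all other spots). L4_5_IT_TPE_ENT was 2.17 times as high, a difference of 11.5 points, while over all other spots its ratio was 0.916. Oligo was lower by 12.5 points (ratio 0.547, and 0.575 over all other spots). Pvalb had a ratio of 0.247 (9 against 53 spots) and L2_IT_RSPv one of 0.364 (3 against 9 spots). Over all other spots these 2 ratios were 0.640 and 1.12. Carrying-spot intervals were apart for L4_5_IT_TPE_ENT, Oligo and Pvalb. Counted by spots in which L4_5_IT_TPE_ENT had the highest share (18.6% of ketamine-treated and 5.15% of control spots), its ratio was 3.61. Endo, Peri and NP_SUB were 2.09, 1.87 and 1.62 times as high with overlapping intervals, and L5_PT_RSP_ACA, Micro, Astro, Pvalb_Vipr2 and L3_RSP_ACA had ratios of 1.34, 1.34, 1.02, 0.841 and 0.708. The direction for L5_PT_RSP_ACA (7 against 13 spots) is not settled: its ratio was 0.846 by spots carrying it and 1.61 with shares under 20% set to 0.

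The susceptible section was set against the control to describe stress with avoidance. Of 11 types, 6 differed by 1.5-fold, 4 higher and 2 lower (54.5%, against 30.4% over all other spots). NP_SUB was 4.01 times as high (32 against 10 spots, intervals apart), L5_PT_RSP_ACA 3.08 times (21 against 13 spots), L4_5_IT_TPE_ENT 2.11 times and L2_IT_RSPv 1.79 times. Counted by spots carrying it, L4_5_IT_TPE_ENT had a ratio of 1.34, under 1.5-fold and with overlapping intervals, and by spots it led 3.49. Outside the cluster the 4 ratios of means were 1.32, 1.33, 0.923 and 1.09. Oligo was lower by 11.2 points (ratio 0.594) and Pvalb had a ratio of 0.514, both with carrying-spot intervals apart. Over all other spots these ratios were 0.628 and 0.797. By spots it led, the Pvalb ratio was 0.989 (5 against 6 spots). By spots carrying it, L5_PT_RSP_ACA had a ratio of 1.92. With L4_5_IT_TPE_ENT left out of the total the Oligo ratio was 0.677, under 1.5-fold. Astro was lower by 8.05 points (ratio 0.797) with intervals apart. L3_RSP_ACA, Endo, Peri and Pvalb_Vipr2 had ratios of 0.704, 0.743, 1.03 and 1.25.

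The resilient section was set against the control to describe stress without avoidance. Of 12 types, 8 differed by 1.5-fold, 3 higher and 5 lower (66.7%, against 39.1% over all other spots). L5_PT_RSP_ACA was 4.76 times as high (47 against 13 spots), Micro 2.53 times (16 against 9) and L4_5_IT_TPE_ENT 2.50 times, a difference of 14.8 points; the last was 1.27 times as high over all other spots, and 4.35 times by the spots it led. Lower were L3_RSP_ACA (ratio 0.335, 13 against 42 spots), Peri (0.363), Pvalb (0.503), Oligo (0.540, a difference of −12.7 points) and Pvalb_Vipr2 (0.584). Over all other spots the ratio was 0.390 for L3_RSP_ACA, 1.09 for Peri, 0.940 for Pvalb, 0.742 for Oligo and 1.46 for Pvalb_Vipr2. There L5_PT_RSP_ACA and Micro had ratios of 1.65 and 1.30. Intervals were apart for L5_PT_RSP_ACA, L4_5_IT_TPE_ENT, Astro (ratio 0.890), Oligo, Pvalb and L3_RSP_ACA. By spots led, Pvalb had a ratio of 1.03 (7 against 6 spots) and Pvalb_Vipr2 one of 1.10 (5 against 4 spots). Endo, L2_IT_RSPv and NP_SUB had ratios of 1.28, 0.977 and 0.884.

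Over the 106 array places that lay in cluster 3 of both the resilient and the control section, several of these differences were smaller, absent or turned round. L4_5_IT_TPE_ENT averaged 21.4% in the resilient and 11.3% in the control section, a ratio of 1.90. Oligo averaged 16.4% in the resilient and 22.7% in the control section, a ratio of 0.724, under 1.5-fold. L5_PT_RSP_ACA averaged 1.08% of a resilient (4 spots) and 1.28% of a control spot (5 spots), a ratio of 0.844; in the 269 other resilient places it averaged 6.47% (43 spots). L3_RSP_ACA averaged 1.90% of a resilient and 1.42% of a control spot (6 spots each, ratio 1.34), and Pvalb_Vipr2 2.29% of a resilient and 1.52% of a control spot (6 and 5 spots, ratio 1.51). Pvalb (6 against 16 spots), Peri (3 spots each) and Micro (9 against 6 spots) kept their direction and stayed past 1.5-fold, at ratios of 0.384, 0.547 and 2.11. By spots carrying it, Peri was thus equal. Types not called over all cluster 3 spots passed 1.5-fold there as well: NP_SUB (ratio 2.77, 7 against 2 spots), Endo (1.75, 8 against 7) and L2_IT_RSPv (0.431, 2 against 4). Carrying-spot intervals overlapped for all 12 types there, including the 6 whose intervals were apart over all cluster 3 spots. The called differences of L5_PT_RSP_ACA, L3_RSP_ACA and Pvalb_Vipr2 therefore rest on places that only one of the sections has in cluster 3.

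The susceptible and resilient sections, both from defeated mice, were compared last. Of 12 types, 8 differed by 1.5-fold, 5 higher and 3 lower in the susceptible section (66.7%, against 37.5% over all other spots). NP_SUB was 4.54 times as high (32 against 13 spots, intervals apart), Peri 2.84 times (11 against 6), Pvalb_Vipr2 2.14 times, L3_RSP_ACA 2.10 times and L2_IT_RSPv 1.83 times. Over all other spots the ratio was 0.849 for NP_SUB and 0.866 for Peri. It was 1.94 for Pvalb_Vipr2, 1.96 for L3_RSP_ACA and 1.52 for L2_IT_RSPv, so these types were past 1.5-fold outside the cluster too. Micro had a ratio of 0.194 (3 against 16 spots) and Endo of 0.579 (0.674 by spots led, 2 against 4). That of L5_PT_RSP_ACA was 0.647 (0.670 without unknown spots, under 1.5-fold). Over all other spots Micro, Endo and L5_PT_RSP_ACA had ratios of 0.728, 0.702 and 0.807. By spots led, the NP_SUB ratio was 17.5, but this rests on 13 susceptible spots against 1 resilient spot. The 3 leading types did not pass the fold, at ratios of 1.10 for Oligo, 0.895 for Astro and 0.844 for L4_5_IT_TPE_ENT, the last with carrying-spot intervals apart. Pvalb was near equal (1.02).

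**Figure D5:**
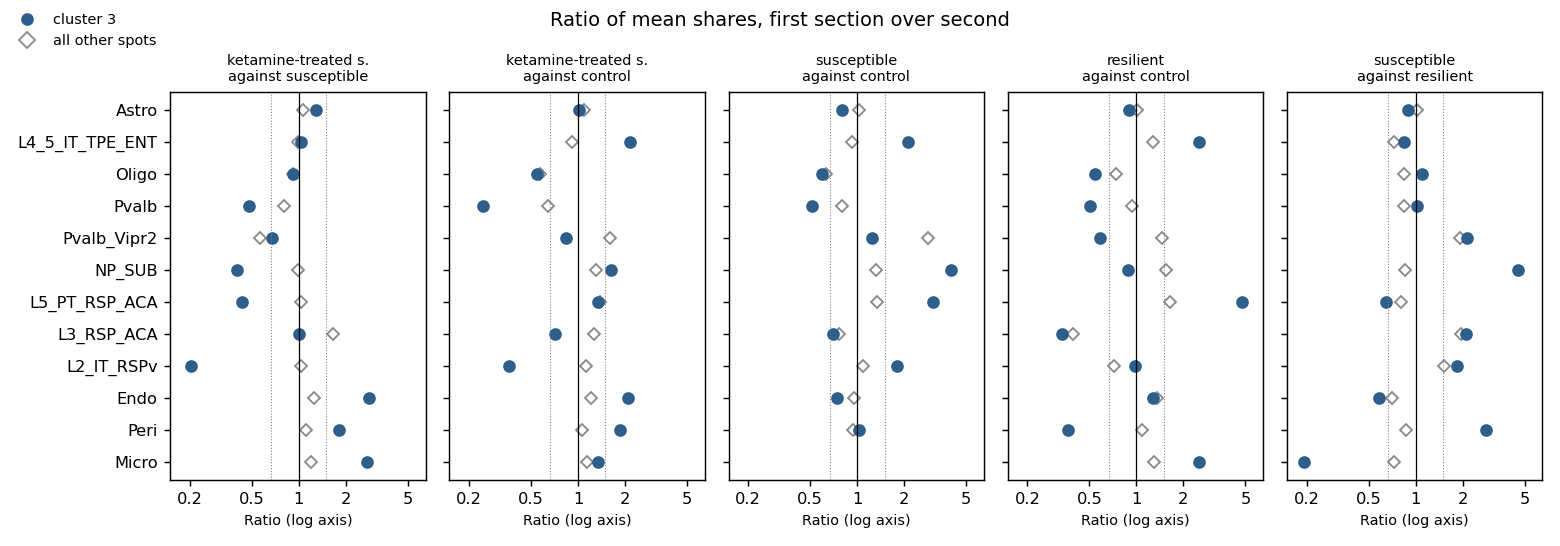
Ratio of mean shares (log axis), first-named over second-named section, for the 12 types that reach a mean of 1% in cluster 3 of some section. Filled circles are cluster 3 spots and open diamonds all other spots, dotted lines mark 1.5-fold, and a type under 1% in both sections is not drawn; L4_5_IT_TPE_ENT stands at 2.11 to 2.50 against the control in cluster 3 and at 0.916 to 1.27 outside it.

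The contribution of cluster 3 to the section-wide differences from the control varied by type. The L4_5_IT_TPE_ENT mean of the whole section was higher by 0.272 points in the ketamine-treated section, to which cluster 3 contributed 0.421, by 0.623 in the susceptible section (0.809) and by 2.07 in the resilient section (1.35). In the first 2 the remaining spots thus went the other way. For Oligo, cluster 3 contributed −1.53 of −9.60 points in the ketamine-treated, −1.12 of −8.39 in the susceptible and −1.10 of −6.25 in the resilient section. These parts also hold the unequal sizes of the cluster.

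The clusters nearest in composition, of the 12 others with at least 20 spots in every section, were cluster 11 and cluster 8 (mean distances within a section 0.382 and 0.393). Cluster 1 followed closely (0.395) and was the nearest in the susceptible (0.404) and control (0.311) sections, but its shares are not described here. Clusters 11 and 8 were rich in Astro, which averaged 29.6% for ketamine-treated, 24.7% for susceptible, 30.3% for resilient and 23.9% for control spots in cluster 11. In cluster 8 it averaged 41.1% for ketamine-treated, 43.8% for susceptible, 38.6% for resilient and 33.0% for control spots. Neither held much L4_5_IT_TPE_ENT: it averaged 0.486% to 1.03% in cluster 11 and 0.184% to 2.61% in cluster 8. Their Oligo shares were highest in the control as well: cluster 11 had 19.7% to 25.9% in the sections of defeated mice and 38.7% in the control, and cluster 8 had 8.23% to 12.03% and, in the control, 31.0%. Whether the control differed more in cluster 3 than in these was not tested.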

How the data were processed

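The authors placed sagittal frozen sections on spatially barcoded slides and sequenced them, per the labels' protocols. Per the submitters' processing notes, the genome build was mm10. How reads were aligned, spots clustered and cell types assigned was not given in the sources used here. Per the file headers, each deposited table gives for every spot a cluster number and the fraction (0 to 1) assigned to each type; fractions are printed as percent. A deposited table of t-SNE coordinates was not used. From the tables, means over cluster 3 spots, shares of spots carrying a type (any share above 0), exact intervals and ratios were computed with Python 3.11.15, pandas 2.3.3 and scipy 1.17.1, after a test on simulated spots. No filter was applied to spots and no doublets were called. Depth is unknown, and the number of spots sets the precision. No p-value was computed, since each group is 1 section. Types named are Astro, L4_5_IT_TPE_ENT, Oligo and OPC, every type with a mean of at least 1% in some section, up to 10 per direction and comparison with the largest ratios, and the 10 commonest pairs; CTX types, cluster 6 and array places were chosen after their values were seen. The cluster, members and lists were chosen with earlier results of these data known. Alternatives tried were spots carrying or led by a type, leaving out unknown spots, setting shares under 20% to 0, weighting the number of types per spot alike, other minimum shares (0.5% and 2%), only the clusters that reach 20 spots everywhere, the other leading type left out of the total, and array places common to both sections; the last 2, and all of these for types other than Astro, L4_5_IT_TPE_ENT and Oligo, were chosen after seeing the data.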

Additional observations from a re-analysis of the deposited data

How the results depend on the processing

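Of 357 recomputed values, 330 stayed within the counting interval of the reported value (or within 1.5 times a count), 22 moved outside it and 5 called ratios of the resilient to the control section reversed. For a ratio of means, this interval scales the ratio by opposite ends of the 2 carrying-spot intervals. It is wide for sparse types, such as 0.349 to 28.2 for Micro, ketamine-treated over susceptible. Most alternatives also reuse the same spots, so staying within it is not read as stability of a sparse type. Over common array places the reversed ratios were 0.844 for L5_PT_RSP_ACA, 1.34 for L3_RSP_ACA and 1.51 for Pvalb_Vipr2. By spots led they were 1.03 for Pvalb (7 against 6 spots) and 1.10 for Pvalb_Vipr2 (5 against 4 spots). Of the ratios near 1, that of Astro, ketamine-treated over control (1.02), was 0.910 by spots carrying, 0.932 by spots led and 0.938 with the number of types weighted alike, and those of Oligo (0.920) and L4_5_IT_TPE_ENT (1.03), ketamine-treated over susceptible, were 1.08 by spots carrying and 0.934 over common array places. For L4_5_IT_TPE_ENT, the ratio to the control by spots carrying it was 1.57 for ketamine-treated, 1.34 for susceptible and 1.85 for resilient spots, and by spots led 3.61, 3.49 and 4.35. Over the array places common to the resilient and control sections, the ratio was 1.90 for L4_5_IT_TPE_ENT and 0.724 for Oligo. By spots led, the Astro ratio of the resilient to the control section was 0.766. Counting types by spots carrying them, the number past 1.5-fold was 11 for ketamine-treated and 12 for susceptible against control, 15 for resilient against control and 14 for susceptible against resilient. With a minimum share of 0.5% it was 10 for susceptible and 13 for resilient against control, and with 2% it was 5 for susceptible against resilient. Over the 13 clusters with 20 spots in every section, cluster 3 took 6.98% of ketamine-treated, 9.13% of susceptible and 10.3% of control spots. The fewer spots and smaller total follow from how these alternatives are built; the cause of the other shifts was not tested. No paired analysis was possible because each group has 1 section. Types below 1% rest on a few spots, and shares below about 15% of a spot are not seen.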
